A study of Homo sapiens with 9 samples.

Results

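The proteasome genes of H1299, an established cell line from a human non-small cell lung cancer, were followed across 9 RNA-seq libraries. They were taken as every protein-coding gene of GENCODE release 29 whose symbol is PSMA, PSMB, PSMC, PSMD, PSME, PSMF or PSMG followed by a number, without the immunoproteasome subunits PSMB8, PSMB9 and PSMB10. This gave 46 of 58721 genes, or 46 of 19940 protein-coding genes. One match, PSMC3IP, is a cofactor of homologous recombination that carries the name of PSMC3 and is no subunit of the proteasome. It is kept in the counts because the symbol rule takes it. Of the 46 genes, 44 passed the filter on low counts and were tested.

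The groups were cells given 0.1 mM melatonin, cells given siCLOCK (small interfering RNA against the clock gene CLOCK) and control cells in serum free medium, with 3 libraries each. The labels give neither a non-targeting siRNA group nor a treatment time, and do not say whether the treated cells were also in serum free medium or whether each sample was its own culture. Library totals over genes ran between 15384539 and 19192962 reads. Levels are CPM (read counts relative to the library's total), scaled by the trimmed mean of M values.

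Some libraries stood apart from their labels. CLOCK itself was at 20.9, 32.0 and 38.1 CPM in the siCLOCK libraries, against 39.0, 38.6 and 44.4 CPM in control libraries, so the library labelled siCLOCK replicate 3 was close to the control range. The log2 fold change of CLOCK in siCLOCK over control was -0.42 with all libraries (adjusted p = 0.34 in edgeR's quasi-likelihood test) and -0.62 without that library (adjusted p = 0.0179, edgeR). That library and the 3 melatonin libraries also shared a higher share of unmapped reads, 2.24 to 2.34%, against 1.22 to 1.36% in the 5 others, and of processed pseudogene reads, 0.314 to 0.324% against 0.163 to 0.172%. All melatonin libraries therefore lie in one set and all control libraries in the other, and melatonin and the set can be separated only through the single siCLOCK library of the second set. KRT8 (130.3 to 182 CPM), KRT18 (213 to 344 CPM) and VIM (1466 to 2018 CPM), which this line expresses, were present in all libraries. The summed level of each list of leukocyte, erythroid, endothelial, fibroblast or lung epithelial markers was at most 4.35 CPM in any library.

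The proteasome degrades proteins tagged with ubiquitin. Its barrel-shaped core has outer rings of alpha subunits, which gate the entry, and inner rings of beta subunits, of which PSMB5, PSMB6 and PSMB7 carry the cutting activities. A regulatory particle caps the core. Its base holds a ring of ATPases that unfold the substrate and docking subunits that bind ubiquitin, and its lid holds the enzyme that removes ubiquitin chains. Other caps, an inhibitor and assembly chaperones are encoded by further PSM genes. Cells coordinate these genes mainly through NFE2L1, a transcription factor that binds antioxidant response elements in their promoters when proteasome activity falls.

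Promoter sequence is shown here because CLOCK binds E-boxes and NFE2L1 binds antioxidant response elements. RefSeq promoters on GRCh38.p14, each of 250 bases before to 50 bases after a start, were matched for 40 of the 46 genes, in 49 windows. PSMA7, PSMB1, PSMB6, PSMB7, PSMD4 and PSMG3 had no match. The E-box letters CACGTG stood in 3 of 49 windows (6.12%), against 7.26% of all 35116 promoters. The antioxidant response element core TGACNNNGC, searched on both strands like the others, stood in 14 of 49 windows (28.6%), against 13.3% of all promoters. The CCAAT box stood in 21 of 49 windows (42.9%), against 34.6% of all promoters. Windows of the same gene can overlap, and a match is a description of letters, not a bound site. The E-box windows belonged to PSMB3, PSMD9 and PSME3. Of the 7 genes with a window that passed in melatonin against control, 1 held an E-box and 2 held the antioxidant response element core. The 4 windows below show a gene with both motifs (PSMB3), with the antioxidant response element core alone (PSMG1), with the E-box alone (PSME3) and the gene with the lowest melatonin value, with neither (PSMC1). They are written 5′ to 3′, with the E-box and the antioxidant response element core in capitals.
PSMB3 (chr17:38752491-38752790, plus strand): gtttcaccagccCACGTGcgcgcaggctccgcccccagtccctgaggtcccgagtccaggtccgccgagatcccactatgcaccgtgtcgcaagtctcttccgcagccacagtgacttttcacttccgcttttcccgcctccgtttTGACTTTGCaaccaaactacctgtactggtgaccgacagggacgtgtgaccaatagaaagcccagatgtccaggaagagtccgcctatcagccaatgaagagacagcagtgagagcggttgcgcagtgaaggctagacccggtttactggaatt
PSMG1 (chr21:39183402-39183701, minus strand): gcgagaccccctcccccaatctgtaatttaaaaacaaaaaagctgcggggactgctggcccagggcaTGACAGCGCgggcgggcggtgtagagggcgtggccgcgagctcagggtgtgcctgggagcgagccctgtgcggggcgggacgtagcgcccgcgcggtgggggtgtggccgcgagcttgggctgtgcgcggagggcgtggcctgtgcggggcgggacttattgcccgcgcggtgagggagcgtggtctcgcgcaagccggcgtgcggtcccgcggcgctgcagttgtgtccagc
PSME3 (chr17:42833147-42833446, plus strand): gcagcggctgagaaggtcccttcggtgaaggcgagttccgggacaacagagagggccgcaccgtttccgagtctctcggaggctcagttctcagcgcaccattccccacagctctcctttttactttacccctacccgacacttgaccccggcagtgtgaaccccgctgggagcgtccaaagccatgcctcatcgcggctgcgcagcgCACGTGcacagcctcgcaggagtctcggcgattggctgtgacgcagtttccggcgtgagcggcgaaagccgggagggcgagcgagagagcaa
PSMC1 (chr14:90256303-90256602, plus strand): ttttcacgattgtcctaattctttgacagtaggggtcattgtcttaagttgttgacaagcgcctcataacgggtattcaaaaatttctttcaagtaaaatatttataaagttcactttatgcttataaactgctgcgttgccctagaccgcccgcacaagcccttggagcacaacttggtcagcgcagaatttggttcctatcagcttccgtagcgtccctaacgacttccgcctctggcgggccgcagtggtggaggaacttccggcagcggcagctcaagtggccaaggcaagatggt

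In melatonin-treated cells, 9 of the 44 tested genes fell and 1 rose relative to control cells. Those that fell were 3 beta subunits of the core (PSMB3, PSMB6 and PSMB7), 2 ATPases of the base (PSMC1 and PSMC3), 2 lid subunits (PSMD7 and PSMD11), the assembly chaperone PSMG1 and PSMC3IP. The ubiquitin receptor PSMD4 rose. The threshold was an adjusted p of 0.05 in edgeR's quasi-likelihood test, with p-values adjusted over 16441 genes. Of the proteasome genes 20.5% fell, against 12.1% of all genes tested, and 2.27% rose, against 11.0% of all genes. In either direction together 22.7% passed, against 23.1% of all genes, so the sum was near the background while the split leaned to lower. Of the 13061 protein-coding genes tested, 13.9% fell, 11.3% rose and 25.1% passed in either direction. What moved was small. The median log2 fold change was -0.10 over the 44 genes, against 0.01 over all genes, and the genes ranged between -0.51 and 0.22. The value was below 0 for 32 genes and above 0 for 12. The summed level of the 44 tested genes was 5924 ± 127 CPM in melatonin cells, 6487 ± 463 CPM in siCLOCK cells and 6402 ± 128 CPM in control cells (SD, n = 3 each).

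When a term for the set of libraries was added to the fit, the 9 genes no longer passed. With that term 0 of 44 proteasome genes fell, against 2.96% of all genes, and 1 rose, against 1.72% of all genes. The gene that rose was PSME1, a subunit of an activating cap, at a log2 fold change of 0.40 (SE 0.11, adjusted p = 0.0401, edgeR). The median over the proteasome genes was then 0.01. The term rests on 1 library, and the part of the set in the melatonin result cannot be told apart from melatonin in the other libraries. It also takes up any other difference between that library and the other siCLOCK libraries, such as its higher CLOCK level. CLOCK itself was at a log2 fold change of -0.006 in melatonin over control without the term and at -0.53 with it. Values with the set term are therefore not values freed of the set alone. Leaving out siCLOCK replicate 1 gave 14 lower genes in place of 9, where 14.5% of all genes were lower.

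**Figure D1:**
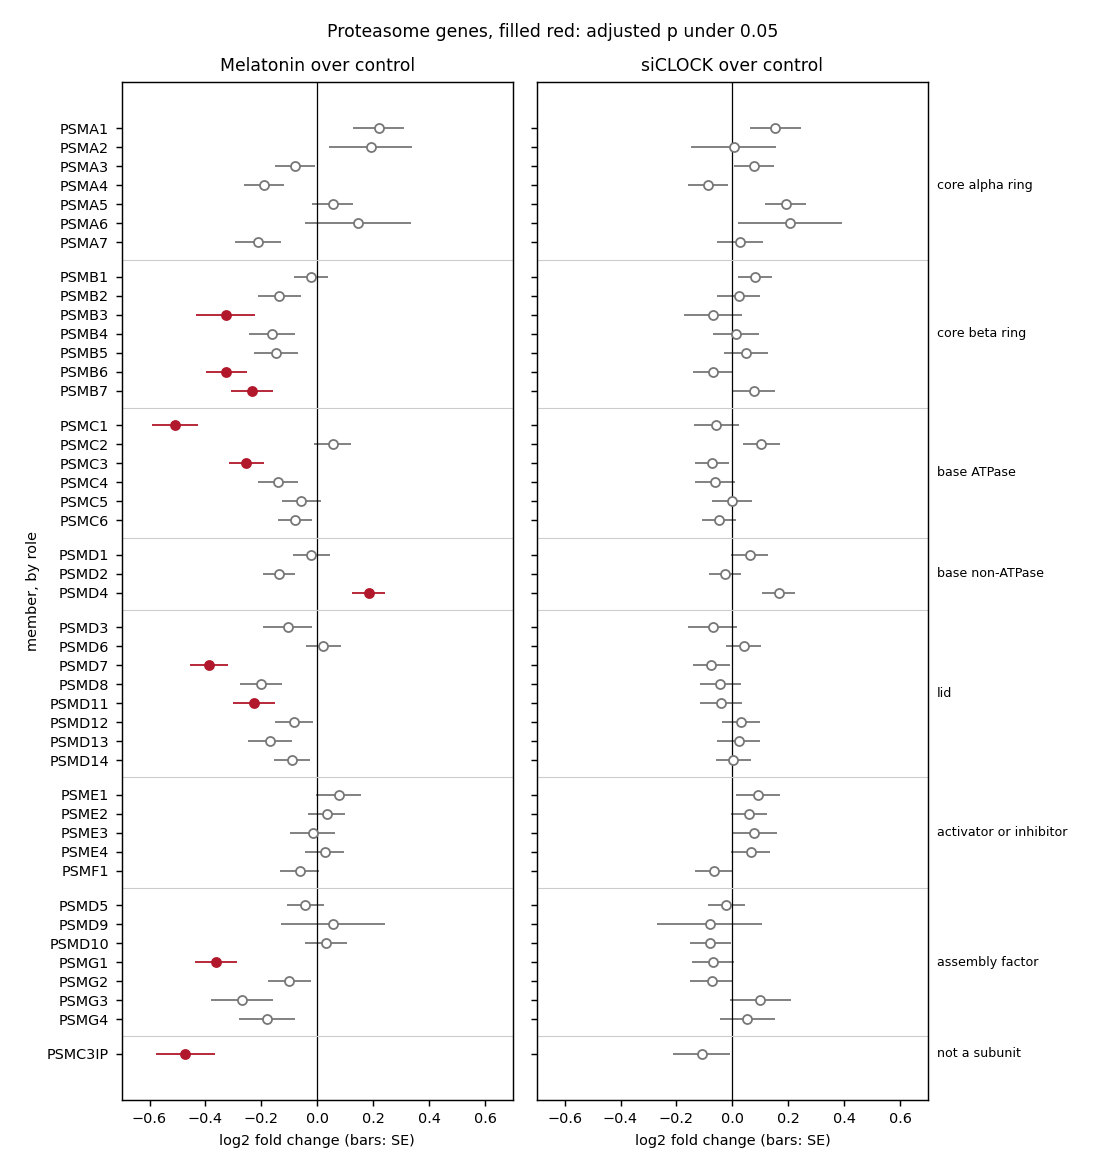
Log2 fold change (horizontal axis, bars are the SE) of the 44 tested proteasome genes, one row each and grouped by role, for melatonin over control (left) and siCLOCK over control (right). Filled red points passed at an adjusted p under 0.05 in edgeR: 9 genes to the left of 0 and PSMD4 to the right in melatonin, and 0 genes in siCLOCK.

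Of the core, no alpha subunit passed. The 7 alpha genes tested had a median log2 fold change of 0.05 in melatonin over control, and values between -0.21 (PSMA7) and 0.22 (PSMA1). The alpha subunit PSMA8, a testis form related to PSMA7, failed the filter with 0, 1 and 1 reads in melatonin libraries, 0 in each siCLOCK library and 0, 1 and 0 in control libraries. All 7 beta genes tested had values below 0, with a median of -0.16, and 3 of them passed, where 12.1% of all genes tested fell. With the set term 2 of the 7 were below 0 and 5 above 0, with a median of 0.07, and 0 passed. PSMB11, the beta subunit of the thymus proteasome, failed the filter at 0 to 2 reads per library.

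The 3 catalytic subunits differed in whether they passed. PSMB6, with the caspase-like activity (chromosome 17, 4796144 to 4798503 on GRCh38), had 114, 126 and 132 CPM in melatonin libraries, 159, 152 and 134 CPM in siCLOCK libraries and 153, 153 and 161 CPM in control libraries. All melatonin libraries lay below all control libraries, and the library labelled siCLOCK replicate 3 lay between them. The log2 fold change of melatonin over control was -0.33 (SE 0.07, adjusted p = 0.00352, edgeR). PSMB7, with the trypsin-like activity, had 348, 359 and 377 CPM in melatonin libraries, 503, 438 and 405 CPM in siCLOCK libraries and 406, 451 and 418 CPM in control libraries. The melatonin libraries again lay below every control library, at a log2 fold change of -0.23 (SE 0.07, adjusted p = 0.0288, edgeR). PSMB5, with the chymotrypsin-like activity that proteasome inhibitor drugs target, had 140.3, 143 and 143 CPM in melatonin libraries, 186, 156 and 147 CPM in siCLOCK libraries and 145, 161 and 167 CPM in control libraries. It did not pass, at -0.15 (SE 0.08, adjusted p = 0.19, edgeR), although its melatonin and control libraries did not overlap. Whether the 3 catalytic genes differ from each other was not tested.

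PSMB3, a beta subunit without cutting activity whose promoter holds both motifs, was singled out after its values were seen, as the one gene past the threshold whose direction turned with the set term. The values of PSMB1, PSMB2, PSMB4 and PSMB5, which had not passed, turned as well, to between 0.07 and 0.13. It had 97.9, 102 and 108 CPM in melatonin libraries, 147, 126 and 94.8 CPM in siCLOCK libraries and 127, 132 and 128 CPM in control libraries. The library labelled siCLOCK replicate 3 was the lowest of all 9, beside the melatonin libraries of its set. The log2 fold change of melatonin over control was -0.33 (SE 0.10, adjusted p = 0.0295, edgeR) and 0.20 (SE 0.12, adjusted p = 0.379, edgeR) with the set term.

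**Figure D2:**
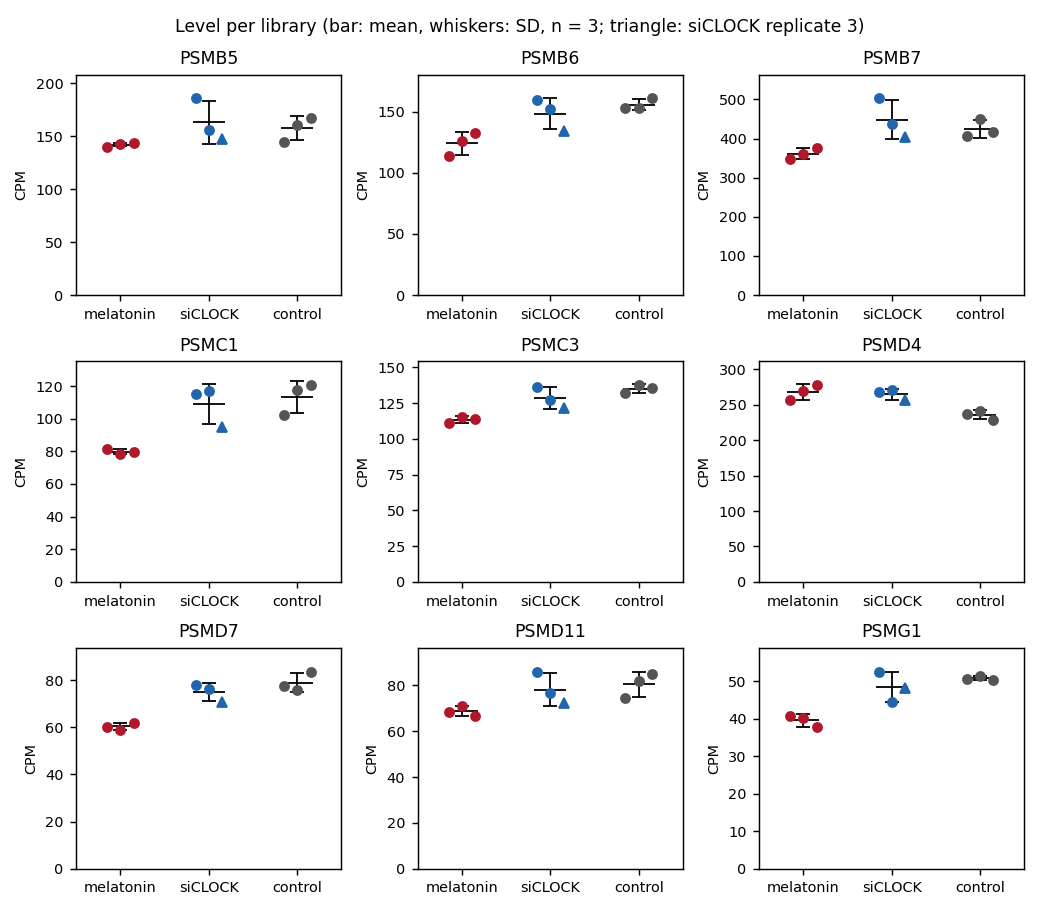
Level in each library (vertical axis, scaled CPM from 0) of the 3 catalytic subunits and 6 other proteasome genes in melatonin, siCLOCK and control cells; bars are means and whiskers the SD over 3 libraries, and the triangle is the library labelled siCLOCK replicate 3. PSMC1 has the lowest fold change, with 78.5 to 81.3 CPM in melatonin cells and 102 to 121 CPM in control cells. Of the genes shown, PSMD4 is the only gene in which all melatonin libraries lie above all control libraries.

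In the base, 2 of 6 ATPase genes fell and the others did not pass, where 12.1% of all genes tested fell. PSMC1, an ATPase of the unfolding ring (chromosome 14, 90256495 to 90275429 on GRCh38), had 81.3, 78.5 and 79.6 CPM in melatonin libraries, 115, 117 and 94.8 CPM in siCLOCK libraries and 102, 118 and 121 CPM in control libraries. The melatonin libraries lay within 3 CPM of one another and below all other libraries. The level fell by 29.7% in melatonin cells, a log2 fold change of -0.51 (SE 0.08, adjusted p = 0.000214, edgeR), the lowest value among the proteasome genes. With the set term it was -0.22 (adjusted p = 0.339, edgeR). PSMC3, another ATPase of the ring, had 111, 115 and 114 CPM in melatonin libraries, 136, 127 and 122 CPM in siCLOCK libraries and 132, 138 and 136 CPM in control libraries. Its siCLOCK libraries lay between those of the other groups or overlapped control, and melatonin over control was -0.25 (SE 0.06, adjusted p = 0.00641, edgeR). PSMC2, PSMC4, PSMC5 and PSMC6 had values between -0.14 and 0.06.

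Of the 3 other base genes, PSMD4 rose, where 11.0% of all genes tested rose. PSMD4, a receptor that binds ubiquitin chains (chromosome 1, 151254703 to 151267479), had 256, 269 and 278 CPM in melatonin libraries, 267, 270.3 and 256 CPM in siCLOCK libraries and 237, 241 and 229 CPM in control libraries. Every melatonin and siCLOCK library lay above every control library. The same held for PSMA1, at 13.2 to 14.8 CPM in melatonin, 13.0 to 13.6 CPM in siCLOCK and 11.5 to 12.1 CPM in control libraries. PSMA1 did not pass in melatonin over control (0.22, adjusted p = 0.091, edgeR). For PSMD4, melatonin over control was 0.18 (SE 0.06, adjusted p = 0.0324, edgeR). Its siCLOCK over control was 0.17 (SE 0.06, adjusted p = 0.411, edgeR), the smallest p among the proteasome genes in that comparison. Both comparisons use the same control libraries. The melatonin call of PSMD4 was lost when any of the 3 control libraries or melatonin replicate 2 or 3 was left out. In those fits 0 proteasome genes were higher, where 6.36 to 9.18% of all genes were. PSMD1 and PSMD2, the large scaffold subunits, had -0.02 and -0.14 and did not pass.

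In the lid, 7 of 8 genes had values below 0 and 2 fell, where 12.1% of all genes tested fell. PSMD7, the inactive partner of the deubiquitinase (chromosome 16, 74296775 to 74306288), had 60.3, 58.8 and 61.9 CPM in melatonin libraries, 77.8, 76.2 and 70.8 CPM in siCLOCK libraries and 77.5, 75.9 and 83.5 CPM in control libraries. The melatonin libraries were below all 6 others, at -0.39 (SE 0.07, adjusted p = 0.000422, edgeR). The value was -0.16 (adjusted p = 0.108, edgeR) from counts of one strand only, where PSMD7 no longer passed. Those counts can also hold reads of the opposite-strand gene that shares its exon bases. PSMD11, a scaffold subunit, had 68.5, 71.1 and 66.7 CPM in melatonin libraries, 85.9, 76.5 and 72.1 CPM in siCLOCK libraries and 74.3, 82.1 and 85.0 CPM in control libraries. Its melatonin libraries lay below every control library, at -0.23 (SE 0.08, adjusted p = 0.0357, edgeR). PSMD14, the deubiquitinase that strips ubiquitin from the substrate, had 128, 120.2 and 125 CPM in melatonin libraries, 140.4, 124 and 134 CPM in siCLOCK libraries and 135, 133 and 129 CPM in control libraries. Its melatonin libraries lay just below every control library, and melatonin over control did not pass at -0.09 (SE 0.06, adjusted p = 0.327, edgeR).

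None of the activator and inhibitor genes passed in melatonin cells. PSME1, PSME2, PSME3 and PSME4, which encode caps that open the core without ATP, and the inhibitor gene PSMF1 had values between -0.06 and 0.08. Of the 7 assembly factor genes 1 fell, where 12.1% of all genes tested fell. PSMG1, a chaperone that helps build the alpha ring (chromosome 21, 39174769 to 39183851), had 40.7, 40.2 and 37.7 CPM in melatonin libraries, 52.5, 44.5 and 48.2 CPM in siCLOCK libraries and 50.6, 51.4 and 50.3 CPM in control libraries. Melatonin libraries lay below all others, at -0.36 (SE 0.07, adjusted p = 0.00184, edgeR), and the value was -0.35 (SE 0.13, adjusted p = 0.124, edgeR) with the set term. Its partner PSMG2 was at -0.10 and did not pass. The recombination cofactor PSMC3IP had 7.44, 9.04 and 8.10 CPM in melatonin libraries, 10.7, 10.7 and 10.2 CPM in siCLOCK libraries and 11.2, 10.8 and 12.2 CPM in control libraries. It lay below both other groups in melatonin cells, at -0.47 (SE 0.11, adjusted p = 0.00342, edgeR). Without PSMC3IP, 8 of 43 tested genes fell (18.6%), against 12.1% of all genes and 13.9% of protein-coding genes tested.

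In siCLOCK cells, 0 of the 44 genes rose and 0 fell relative to control cells, where over all genes 0.0547% rose and 0.0669% fell in edgeR. DESeq2 and every other alternative run also gave 0. Of the 44 genes, 2 had an unadjusted p under 0.05 in edgeR, PSMD4 and PSMA5. Over all genes, 1355 of 16441 did. The core alpha subunit PSMA5 had a log2 fold change of 0.19 (SE 0.07, adjusted p = 0.45, edgeR). Values of the 44 genes ranged between -0.11 and 0.21, with a median of 0.01. The siCLOCK libraries were not alike. Replicate 1 lay above the control mean in 35 of 44 genes, with a median log2 ratio of 0.11. Replicate 2 lay above it in 16 genes, with a median of -0.04, and replicate 3 in 15 genes, with a median of -0.09. The 3 melatonin libraries had medians of -0.12, -0.12 and -0.08, and the 3 control libraries -0.02, 0.02 and 0.01. CLOCK was lowest in replicate 1 and nearest to control in replicate 3, and whether this bears on the proteasome genes was not tested. Without replicate 3, PSMD4 was at 0.18 (adjusted p = 0.237, edgeR).

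**Figure D3:**
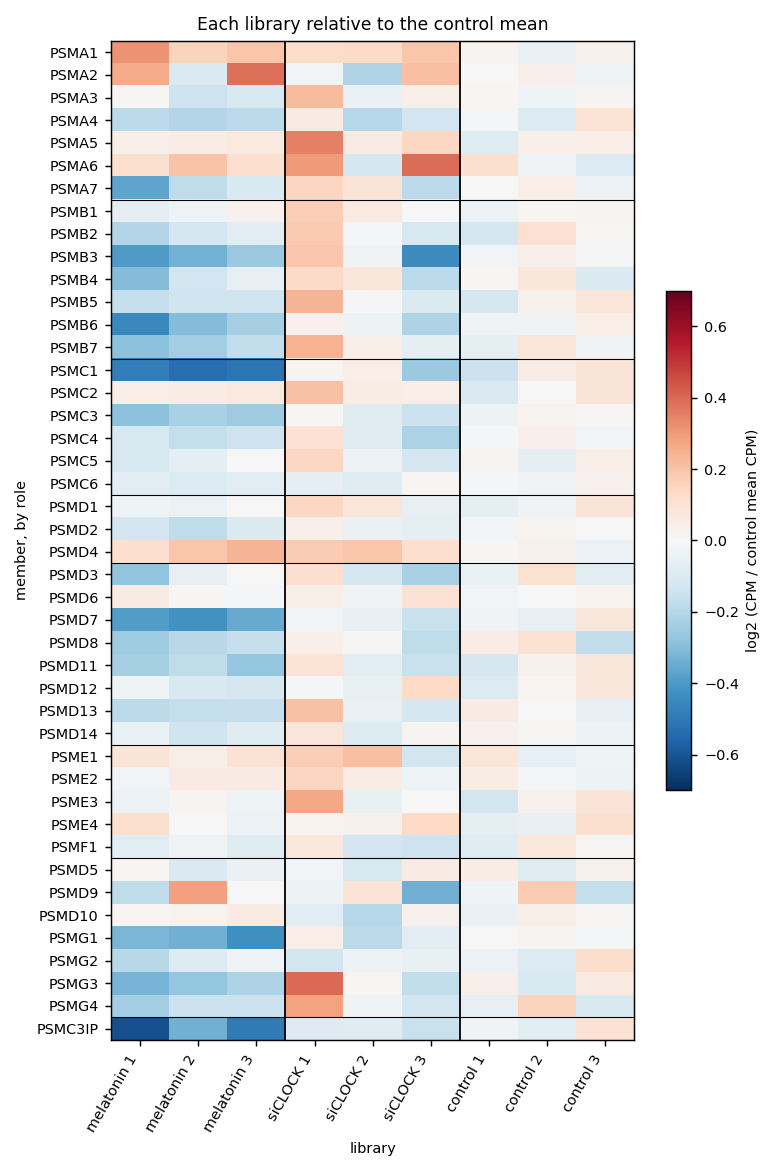
Log2 ratio of each library's scaled CPM to the control mean (colour, red above and blue below 0) for the 44 tested proteasome genes (rows, by role) in melatonin, siCLOCK and control libraries (columns). The melatonin columns have median ratios of -0.12, -0.12 and -0.08; siCLOCK replicate 1 is mostly red at 0.11 and the library labelled siCLOCK replicate 3 mostly blue at -0.09.

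Set directly against siCLOCK cells, melatonin cells had 7 lower and 0 higher proteasome genes, where 10.1% of all genes were lower and 7.43% higher. The genes were PSMB6, PSMB7, PSMC1, PSMD7, PSMG1, PSMC3IP and the assembly chaperone PSMG3. The largest difference was in PSMC1, at -0.45 (SE 0.08, adjusted p = 0.00096, edgeR). PSMG3 was at -0.37 (SE 0.11, adjusted p = 0.0276, edgeR) and had 26.0, 27.1 and 28.1 CPM in melatonin libraries, against 43.0, 32.9 and 28.9 CPM in siCLOCK libraries. Its siCLOCK spread was led by replicate 1. Leaving out siCLOCK replicate 3 gave 17 lower genes, where 12.9% of all genes were lower. Leaving out siCLOCK replicate 1, melatonin replicate 1 or melatonin replicate 3 gave 4 each, where 8.20%, 6.34% and 6.32% of all genes were lower in that order. With the set term 0 were lower, against 3.85% of all genes. Melatonin was also set against the 1 siCLOCK library of the same set, as values only: PSMC1 was at 78.5 to 81.3 CPM in melatonin libraries and at 94.8 CPM there, and PSMD7 at 58.8 to 61.9 CPM and at 70.8 CPM there. PSMB3 went the other way, at 97.9 to 108 CPM in melatonin libraries and at 94.8 CPM there. Over the 44 genes, the median log2 ratio to the control mean was -0.09 in that library. It was -0.12, -0.12 and -0.08 in the melatonin libraries, so that library lay within their range.

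Levels per length differed widely between the genes, and the lowest were genes that overlap another gene. In control cells, PSMB1, PSMB7 and PSMB4 were highest, at 520.2, 434 and 331 CPM per kb of the principal transcript. PSMD9, PSMA6, PSMA2 and PSMA1 were lowest of the 44, at 0.974, 2.10, 3.51 and 7.90 CPM per kb, and the next were PSMC3IP at 8.06 and PSME4 at 16.1 CPM per kb. The 4 lowest genes were singled out after their values were seen. For each, the gene that shares most of its exon bases lies on the same strand, with 28.2% of those of PSMD9, 81.0% of PSMA6, 52.5% of PSMA2 and 53.2% of PSMA1, and had at most 3 reads in any library. With all other genes counted, the shares were 43.8% for PSMD9 and 54.1% for PSMA2. Overlap did not order the other genes: PSMC1, with 82.1% of its exon bases shared, was at 25.5 CPM per kb and PSMD7, with 50.4%, at 47.3 CPM per kb, both above PSME4, with almost none. STAR counts a read that lies in more than 1 gene as ambiguous and gives it to neither, and such reads were 9.77 to 10.6% of each library's total. The counts of these 4 genes can leave out such reads, so their levels and small changes are uncertain; the part of the overlap in their low levels was not tested.

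The genes PSMC1, PSMD7, PSMC3IP and PSMC5 share exon bases with a gene on the opposite strand: 82.1% with NRDE2, 50.4% with AC009120.2, 54.4% with MLX and 27.2% with FTSJ3. The count of one strand, in which such overlaps are not ambiguous, was 150.2%, 163%, 199% and 108% of the count regardless of strand for these genes. For the 40 others with a test it was 42.6 to 63.5%, near what a single strand holds in libraries that do not mark strand. In such libraries the count of one strand can also hold reads of the opposite-strand neighbour in the shared bases. It therefore does not separate the overlapping genes. From counts of one strand, melatonin over control was -0.36 (adjusted p = 0.000794, edgeR) for PSMC1 and -0.48 (adjusted p = 0.000436, edgeR) for PSMC3IP. Both passed, from counts that can be mixed with reads of NRDE2 and MLX, and the part of these reads was not tested. The neighbours NRDE2 (0.08), AC009120.2 (0.21) and MLX (-0.19) did not pass in melatonin over control.

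**Figure D4:**
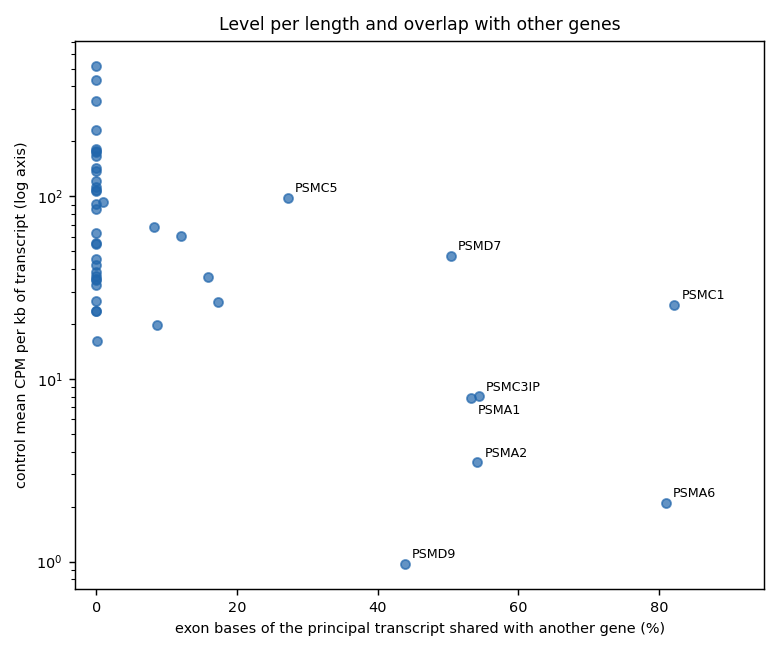
Control mean CPM per kb of principal transcript (vertical log axis) against the percent of its exon bases that another gene shares (horizontal axis) for the 44 tested proteasome genes. The 4 lowest, PSMD9, PSMA6, PSMA2 and PSMA1, lie at 0.974 to 7.90 CPM per kb and 43.8 to 81.0% overlap.

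Genes around the proteasome, from lists chosen with earlier results known, moved in both directions in melatonin cells. None of the listed genes passed in siCLOCK over control. Over all genes tested, 11.0% rose and 12.1% fell in melatonin over control, or 1.72% and 2.96% with the set term. Of the 3 immunoproteasome subunit genes, which replace the catalytic ones after interferon, PSMB10 rose, at 2.14, 2.53 and 2.72 CPM in melatonin libraries, against 1.38, 1.75 and 1.74 CPM in control libraries (log2 0.61, SE 0.21, adjusted p = 0.039, edgeR). At these levels, and with 45.3% of its exon bases shared with another gene, the change is uncertain. PSMB8 was at -0.32 (adjusted p = 0.153) and PSMB9 at -0.07 (adjusted p = 0.625). Of 11 partners without a PSM symbol, 3 fell: AKIRIN2, needed to bring proteasomes into the nucleus, fell by 0.38 (adjusted p = 0.000443), the deubiquitinase UCHL5 fell by 0.37 (adjusted p = 0.00147) and the adaptor ECPAS fell by 0.20 on the log2 scale (adjusted p = 0.0191, edgeR). With the set term 1 of the 11 fell, UCHL5 (-0.51, SE 0.12, adjusted p = 0.014, edgeR), while AKIRIN2 (adjusted p = 0.114), ECPAS (adjusted p = 0.299) and PSMB10 (adjusted p = 0.483) no longer passed.

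Of 14 regulators of proteasome genes, 2 rose (14.3%) and 3 fell (21.4%), against 11.0% and 12.1% of all genes tested. NFE2L1 was at 302, 302 and 304 CPM in melatonin libraries and 291, 277 and 283 CPM in control libraries, and did not pass at 0.09 (SE 0.06, adjusted p = 0.329, edgeR). The cell-cycle transcription factor FOXM1 fell by 0.66 on the log2 scale (SE 0.07, adjusted p = 1.55e-06, edgeR), and by 0.66 with the set term. Of the subunits of the CCAAT-binding factor, NFYA rose by 0.35 (adjusted p = 0.00432) and NFYB fell by 0.27 (adjusted p = 0.0196, edgeR). With the set term 0 of the 14 rose and 2 fell, FOXM1 and NFYB (adjusted p = 0.0482, edgeR), and NFYA no longer passed (adjusted p = 0.112). Of 17 ubiquitin and delivery genes 4 rose and 0 fell, against 11.0% and 12.1% of all genes tested. Among those that rose were the ubiquitin fusion gene RPS27A (0.23, adjusted p = 0.00693) and the shuttle UBQLN2 (0.21, adjusted p = 0.0377, edgeR). With the set term 0 of the 17 rose (RPS27A, adjusted p = 0.297; UBQLN2, adjusted p = 0.158, edgeR). RPS27A also encodes a ribosomal protein, so its counts are not of ubiquitin alone. The 32 pseudogenes named after proteasome genes summed to 9.71, 8.63 and 9.59 CPM in melatonin libraries, 4.54, 4.08 and 10.2 CPM in siCLOCK libraries and 5.15, 4.50 and 5.78 CPM in control libraries. Their sum was highest in the melatonin libraries and in the library labelled siCLOCK replicate 3, which share a set.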

How the data were processed

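The authors deposited read counts per gene from STAR 2.7.9a with the genome build GRCh38 (hg38), per the submitters' processing notes, from paired-end BGIseq500 reads, per the labels' protocols. GENCODE release 29 was inferred from the gene identifiers, of which 58721 matched. Counts regardless of strand were used; the files' summary lines of reads without a gene (unmapped, ambiguous and the like) were left out. In R 4.3.3, edgeR 4.0.16 filtered genes with filterByExpr (16441 kept), scaled with TMM and fitted 1 quasi-likelihood model to all 9 libraries. Tests were two-sided with Benjamini-Hochberg adjustment over all genes, and CPM, SE and log2 values come from this fit. The labels name no cultures, so p-values reflect the spread between samples, which may be technical. The set term divides libraries at 1.8% unmapped reads. Alternatives used DESeq2 1.42.0 and limma-voom (limma 3.58.1), other scalings and filters, and leaving out each library. The fit was also run on simulated counts, with the same spread for every gene and no difference between sets of libraries. That run therefore does not bear on the set or on the unlike siCLOCK libraries.

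The members and lists were chosen with earlier results of these data known. Values in every library are given for the 3 catalytic subunits, for up to 2 genes per role and direction with the smallest p in melatonin against control, for PSMD14, for the smallest p in siCLOCK against control and for genes failing the filter; PSMB3 and PSMG3 were added after their values were seen. Promoters come from RefSeq (GRCh38.p14). The replicate numbers of the labels are taken only as names. Some genes of the marker and companion lists are not reported here.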

Additional observations from a re-analysis of the deposited data

How the results depend on the processing

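Melatonin against control gave 9 lower and 1 higher proteasome genes, against 12.1% and 11.0% of all genes tested. These counts stayed within 1.5 times under DESeq2, limma-voom, both other scalings, the stricter filter and protein-coding genes alone. Under those settings 11.1 to 16.5% of the genes tested were lower and 8.97 to 13.7% higher. The lower count was 18 with only the 6 libraries compared (17.5% of all genes) and 0 with the set term (2.96%). It lay between 6 and 14 when each library was left out, where 8.2 to 14.6% of all genes were lower. The higher count was 0 with no filter (4.55% of all genes), with the strand-specific column (7.87%) and at an adjusted p under 0.01. Over the left-out libraries it was between 0 and 1, where 6.36 to 13.2% of all genes were higher. Melatonin against siCLOCK gave 7 lower genes (10.1% of all genes), against 0 with the set term (3.85%) and 3 at an adjusted p under 0.01. It gave 4 to 17 over the left-out libraries, where 6.18 to 12.9% of all genes were lower. Shares over all genes at the stricter adjusted p are not given here. PSMB3 turned to 0.20 with the set term; the cause was not tested. PSMB6, PSMC1, PSMC3, PSMG1 and PSMC3IP each passed in 19 of 20 alternatives, all but the set term, PSMD7 in 18, PSMB7 in 16, PSMB3 in 14, and PSMD4 and PSMD11 in 12. The siCLOCK counts stayed at 0 throughout.

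With the replicate block, 8 proteasome genes were lower and 1 higher in melatonin against control, where 11.4% and 10.1% of all genes were. In melatonin against siCLOCK 7 were lower with that block, where 9.43% of all genes were. Deviations of same-numbered libraries correlated between -0.09 and 0.06, which shows no sign of pairing by number. With 3 libraries per group and siCLOCK libraries that were not alike, it cannot settle whether samples were paired. Depth limits PSMA6, PSMD9, PSMA8 and PSMB11, at 3.31 CPM or less in every library.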
